A study of Mus musculus with 6 samples.

Results

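Among the small RNA sequences of macrophage exosomes, 49 carried the name of a mouse microRNA hairpin together with a mark for an arm that is not listed as a mature microRNA. They were 49 of 2704 distinct sequences in the table, and they came from 15 hairpins. They were found by name only: the name began with a lower-case mouse hairpin and ended, before any further suffix, in -p5 or -p3. The names filled 55 lines of the table, and a sequence listed under more than 1 name with identical values was counted once. Of the 49, 6 were listed under 2 names, and each of those 6 was put on both the p5 and the p3 arm of its hairpin.

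The sequences came from exosomes in the culture supernatant of RAW264.7 cells, an established mouse macrophage line, grown in medium free of exosomes. The cells were kept on Ti6Al4V titanium alloy disks, which were either polished (smooth titanium disks, 3 libraries) or sandblasted, acid-etched and treated with hot alkali (small-scale topography titanium disks, 3 libraries). Both groups used the same cell line and no other treatment was named, so the disks stand for 1 line of cells in culture, and whether the 3 libraries of a disk were separate cultures was not stated. All p-values therefore measure only the spread between these libraries.

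A microRNA gene is transcribed as a longer RNA that folds into a hairpin. The enzymes Drosha and Dicer cut out a short duplex, and usually 1 of the strands is loaded into an Argonaute protein and guides it to messenger RNAs through the seed, the bases 2 to 8. The other strand and the loop are mostly degraded. Some loci entered in microRNA catalogues lie in repeats or carry letters of abundant structural RNAs, so a short read with such a name can also be a fragment of another transcript. As background, mir-3470a and mir-3470b are made of letters of the B1 short interspersed element, mir-466k is built on a GT repeat, and parts of mir-6240 and mir-6236 resemble the large-subunit ribosomal RNA. Ribosomal RNA sequence was not among the sources used here, and that resemblance was not tested.

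The sequences that carried most of the signal, or that differed most between the disks, were of different kinds. They are given as DNA letters from 5′ to 3′, and a capital marks a base that the name gives as substituted. The name 1ss15GT, for example, means that the hairpin has G and the read has T at base 15 of the read. The first set is shown because the reads of mir-6240 lie over each other and repeat the same substituted bases.
mir-6240-p3_1ss15GT: cccagtgctctgaaTgtca
mir-6240-p3_1ss16GT: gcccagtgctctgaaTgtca
mir-6240-p5_1ss20GT: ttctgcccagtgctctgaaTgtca
mir-6240-p3_1ss10TG: ggtgttgacGcgatgtgat
mir-6240-p3_1ss7TG: gttgacGcgatgtgatttc
mir-6240-p3_1ss9TG: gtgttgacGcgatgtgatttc
mir-6240-p5_1ss12TG: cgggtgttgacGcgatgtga
mir-6240-p5_1ss15TG_1: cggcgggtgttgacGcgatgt

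The hairpin of mir-6240 from RefSeq (GRCm38.p6, chr5:114851948-114852064, plus strand, in no other annotated gene) is shown with the 3 bases in capitals at which its reads differed from it.
mir-6240 hairpin: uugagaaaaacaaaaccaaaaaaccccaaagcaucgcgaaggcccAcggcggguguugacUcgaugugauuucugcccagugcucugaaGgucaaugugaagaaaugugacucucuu

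The next set is shown because its members had exact sense matches in many mouse transcripts, and because it held both members that were higher on small-scale topography disks without overlap between the groups.
mir-3470a-p3: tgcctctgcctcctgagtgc
mir-3470b-p3_1ss15GA: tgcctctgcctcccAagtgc
mir-3470b-p5_1ss14TC: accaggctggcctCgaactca
mir-466k-p5: gtgtgtgtgtgtgtgtgtg
mir-1895-p3_1ss5CA: aggaAgaggaggaggagga

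The last set gives a read from a hairpin loop, reads of mir-5124a and mir-5119 that lie on the annotated mature microRNA with a substituted base, a substituted read of mir-5099, and exact reads of mir-6236.
mir-182-p3: gtaaggtaatgggacccg
mir-5124a-p3_1ss6CA: gggtcAagtgactaagagca
mir-5119-p3_1ss5TA: catcAcatcctggggctg
mir-5099-p5_1ss18TG: gatcgatgtggtgctccGg
mir-6236-p5_1: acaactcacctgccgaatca
mir-6236-p5_2: atcaactagccctgaaaa

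The members were short. Of the 49, 11 had 18 bases, 21 had 19, 9 had 20, and 8 had 21 to 24 bases. Under 21 bases were 83.7% of them, against 45.5% of the 112 sequences with an annotated mouse name. It was 31.2% for the 324 sequences with an annotated name of another species. For the 48 sequences on unannotated arms of hairpins of other species it was 93.8%. Median length was 19 bases for the members and 21 bases for the annotated mouse names. These shares are descriptions, because members of 1 hairpin overlap and are not independent: 10 of the 49 were contained whole in another member, and the 49 had 42 distinct seeds.

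Substituted bases were frequent. A substitution was given in the names of 41 of the 49 members (83.7%), and 2 of these had 2 substituted bases. The same was true of 31.3% of the annotated mouse names and of 14.8% of the annotated names of other species. Of the unannotated arms of other species, 72.9% had a substitution. Only substitutions given in the name were counted. A base added at the end of an annotated form can differ from the hairpin without such a mark. This was so for 1 form named for miR-5119, which carried G31C, so the shares are not fully alike. Counted by read, T-to-G was the most frequent change with 11, followed by G-to-C with 7, C-to-A with 5 and G-to-T with 5. Overlapping reads repeat the same position in these counts. Of the T-to-G changes, 7 were at base 61 of the mir-6240 hairpin, and all 5 G-to-T changes were at its base 90. Of the C-to-A changes, 3 were at base 15 of mir-5124a. The order of the kinds is therefore not an order of separate positions. The first name listed gave the p5 arm for 24 members. In 30 members from 11 hairpins whose hairpin was in the RefSeq table, the substitution in the name matched the alignment in 30 of 30.

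The substitutions of mir-6240 recurred at fixed places. Its 14 members covered bases 37 to 98 of the 117-base hairpin, counted from 1 at the 5′ end, and the annotated mature microRNA lies at bases 26 to 51. All 7 members that covered base 61 carried T61G, and all 5 that covered base 90 carried G90T. The 1 member that covered base 46 carried A46G. No member covered both base 61 and base 90. The only exact member was mir-6240-p5, which lies at bases 69 to 87, between the 2 substituted positions, and which was listed in 2 smooth libraries at 6.19 and 3.03. An exact shortened form of the annotated mature sequence was listed in 1 library, small-scale topography 1, at 10.3. No read named for mir-6240 that covered base 46, 61 or 90 had the letter of the hairpin there.

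A recurring substitution was also seen in mir-5124a, a hairpin in an intron of Gcnt2 (chr13:40865791-40865862, plus strand), and here the reads named for the annotated mature microRNA shared it. All 3 members over base 15 of the hairpin carried C15A, and so did 4 of 5 sequences with the annotated name. The main form with the annotated name, an 18-base sequence, had 2568, 1042 and 2200 on small-scale topography disks and 1148, 1577 and 3058 on smooth disks. The member mir-5124a-p3_1ss6CA contains that form whole, with 2 more bases at its 5′ end, and it had only 9.0, 0 and 10.5 against 10.3, 11.4 and 14.5. The other 3 members of this hairpin were each listed in small-scale topography 3 only, at 14.7, 9.98 and 3.68. The groups overlapped for the main form. It is printed here, with base 15 of the hairpin in capitals, because it shows that the p3 mark was given to a read of the annotated arm.
miR-5124a_L-1R-1_1ss5CA: gtcAagtgactaagagca
mir-5124a hairpin: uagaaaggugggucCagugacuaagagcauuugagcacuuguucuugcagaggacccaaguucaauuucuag

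In mir-5119, in an intron of Cdk12 (chr11:98262606-98262662, plus strand), the picture was mixed. T37A was carried by 2 of 3 members over that base and by 2 of 6 sequences with the annotated name. The most abundant annotated form was named with a T-to-G change instead. The member mir-5119-p3_1ss5TA had 29.6, 23.3 and 37.8 on small-scale topography disks and 21.1, 19.1 and 30.7 on smooth disks, and these ranges overlapped.

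The label of an unannotated arm held for only a portion of the members when the hairpins were aligned. Of the 30 that could be placed, 18 shared at least 1 base with the annotated mature sequence, and 11 shared 10 bases or more. Those 11 were all 4 members of mir-5124a, all 3 of mir-5119, and 1 each of mir-6946, mir-6978, mir-1895 and mir-6240. A further 11 members were clear of it, and for 1, of mir-5099, the table held no mature sequence. Of the 26 that were given a single arm, the middle of the read lay on the named side of the RefSeq hairpin for 15 and on the other side for 11.

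One member lay between both annotated arms of its hairpin, in the loop. mir-182-p3 matched bases 32 to 49 of the mir-182 hairpin (chr6:30165918-30165992, minus strand) without a substitution. The annotated miR-182-5p ends at base 31 and miR-182-3p begins at base 50, so the 18 bases between them were covered from end to end. In the hairpin, the bases of this read are in capitals.
mir-182 hairpin: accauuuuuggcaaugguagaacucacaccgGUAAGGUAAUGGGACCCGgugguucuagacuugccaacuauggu
The loop read was listed in smooth 2 and smooth 3 only, at 6.99 and 7.23. A shortened form of the 5p arm in the same libraries had 77.2, 40.4 and 51.5 on small-scale topography disks. On smooth disks it had 102, 96.9 and 88.0, so all 3 smooth libraries were above the others for this form. Of the 536 sequences fitted between the disks, 5.04% were likewise lower on small-scale topography disks without overlap. No fit is given for this form, and a difference of the whole hairpin between the disks was not tested. Listing the loop at 0 in 4 libraries does not show that it was absent at this depth.

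Origins were looked for by exact sense match of each sequence in the annotated mouse transcripts (GENCODE M21, GRCm38). This was done for the 43 members outside mir-5112, whose sequences are not shown here. No match was found for 31 of the 43, and 7 matched the hairpin of their own name. A match was missing for 36.6% of annotated mouse names, 30.9% of annotated names of other species and 87.3% of all 2704 sequences. Of the 2704, 2171 were candidates without a microRNA name, and 98.9% of these had no match. All of the 31 had a substitution in the name, and none of the 7 had one. An exact search cannot place a substituted read on its own hairpin, so the missing matches say nothing about origin. Matches in transcripts of 10 or more genes were found for 6 of 43 members. Of all 2704 sequences, 12 (0.444%) had such matches, these 6 among them. The share was 3.57% of annotated mouse names, 0.309% of annotated names of other species and 0.0461% of the candidates. The 6 were mir-466k-p5 (2143 genes), both members of mir-3470b (578 genes each), mir-3470a-p3 (174 genes), mir-1895-p3_1ss5CA (152 genes) and mir-466k-p3_1ss7GA (11 genes). A match is a description of letters and does not show which transcript a read came from.

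The other classes were small. The 1 simple repeat among the members, mir-466k-p5, was also the only one in the whole table, with 100% of its bases in the GT run. In mir-1895-p3_1ss5CA, 73.7% of the bases lay in a run of a 3-base unit, below the 80% asked for. Matches in other structural RNA classes were found for 2 members, mir-466k-p5 and mir-3470b-p5_1ss14TC, and both also matched many genes. Letters common in transfer RNA (TAGCTCAG, TGGTCTAG, GTTCGA and a longer T-arm motif, on the read's own strand) were in 0 of 43 members, and TAGCTCAG was in 0.703%, TGGTCTAG in 0.185% and GTTCGA in 0% of all sequences. Of the members, 0 of 43 ended in CCA, against 1.59% of all sequences. The authors had filtered the reads against messenger RNA, other RNA families and repeats before naming them. An absent motif or a low number of matches therefore describes only the reads that were left.

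The libraries differed in depth and in the number of members listed. The lowest steps of the values gave the worth of 1 read in each library, and from it the totals were 163845, 180372 and 264828 reads on small-scale topography disks and 329805, 604081 and 194510 reads on smooth disks. The lowest value of any member in a library stood for 2.5 to 3.5 reads. Listed were 27, 30 and 41 members in the 3 small-scale topography libraries and 32, 41 and 29 in the 3 smooth libraries. The highest number, 41, was reached in the deepest library of each disk. Across the disks the order differed: smooth 1, with 329805 reads, listed 32 members, and small-scale topography 3, with 264828 reads, listed 41. The part of depth in these numbers was not tested. With 10 reads or more there were 18, 12 and 31 members against 21, 34 and 16.

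In all 6 libraries, 19 of the 49 members (38.8%) were listed, and 11 were listed in a single library. Of these 11, 6 were in small-scale topography 3 and 3 in smooth 2. For comparison, 20.5% of annotated mouse names and 45.1% of annotated names of other species were listed in all 6. Of the unannotated arms of other species, 2.08% were. Both disks shared 36 members, 7 were listed on small-scale topography disks only, and 6 on smooth disks only. Counting only libraries with 10 reads or more, 11 members were present in all 6. None of the members listed on 1 disk only was listed in all 3 of its libraries.

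Values of the members were often not whole reads. Of 200 values above 0, 55.5% were whole multiples of 1 read within a tolerance of 0.02, and 100% were whole multiples of 0.5 reads. The share of whole reads among the members was 39.0% to 79.3% by library, against 85.2% to 89.4% for other named sequences. How the program divided reads between names was not stated, and its part in the values was not tested. Moreover, 4 pairs of members from the same hairpin had the same 6 values. There was 1 such pair in mir-6240, 1 in mir-5112 and 2 in mir-6236, and each pair is counted once in the sums below.

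The members took a small share of the libraries. Of all normalized signal, they made up 0.830%, 0.538% and 0.638% on small-scale topography disks (0.669% ± 0.148, SD, n = 3) and 0.582%, 0.486% and 0.603% on smooth disks (0.557% ± 0.0626, SD, n = 3). The ranges overlapped. The 6 microRNAs listed for macrophages and other myeloid cells made up 38.4% to 46.6% in the same libraries, and all 6 were found. They were miR-223-3p, miR-142-5p, miR-142-3p, miR-155-5p, miR-146a-5p and miR-21-5p, and their shares were not separated. Markers of red blood cell precursors stood at 0.0241% to 0.0430%, and miR-122-5p, the liver microRNA, at 0.801% to 1.59%. Of 3 muscle microRNAs looked for, 1 was found, miR-133a-3p, in smooth 2 only, at 0.000828%. In exosome RNA, fewer vesicles with a sequence and fewer copies per vesicle cannot be told apart.

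Within the members, 3 hairpins held most of the signal. mir-6240 alone gave 30.0% to 56.5% of the members' sum by library, and mir-3470a and mir-3470b together gave 25.4% to 47.4%. All 3 together gave 66.0% to 89.3%. The summed value of mir-6240 was 640.3, 789.2 and 532.3 on small-scale topography disks and 896.3, 622.4 and 590.5 on smooth disks, and the disks overlapped. The summed value of mir-3470b was 638.4, 442.7 and 463.5 against 327.0, 390.1 and 455.5, and these overlapped by 1 smooth library only.

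The member with the highest mean was mir-3470b-p3_1ss15GA, from a hairpin in an intron of Gramd1c on the opposite strand (chr16:44013852-44013977). It had 596, 435 and 408 on small-scale topography disks and 318, 384 and 447 on smooth disks (480 ± 102 against 383 ± 64.6, SD, n = 3). The highest smooth library was above 2 of the small-scale topography libraries. The log2 fold change, small-scale topography over smooth on the log2(value + 1) scale, was 0.32 with a standard error of 0.28 by limma. This difference did not pass the test.

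The closely related mir-3470a-p3 (chr6:83090311-83090387, no other gene there) differed more between the disks. It had 189.7, 115 and 177 on small-scale topography disks and 76.0, 61.5 and 90.4 on smooth disks (160.4 ± 39.9 against 76.0 ± 14.4, SD, n = 3). Every small-scale topography library was above every smooth library. The log2 fold change was 1.05 with a standard error of 0.38, an unadjusted p of 0.0102 and an adjusted p of 0.823 by limma with Benjamini-Hochberg adjustment, so it did not pass the test over all sequences. An exact two-sided permutation test of the values gave p = 0.1, the smallest that 3 libraries against 3 allow. Groups without overlap always give this value. The log2 fold change stayed between 0.91 and 1.27 when each library was left out in turn.

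These 2 reads share their first 13 bases and so the same seed, and they differ by T14C and G15A, counted from the 5′ end with the base of mir-3470a-p3 first. The ratio of mir-3470a-p3 to mir-3470b-p3_1ss15GA was 0.318, 0.264 and 0.433 on small-scale topography disks and 0.239, 0.160 and 0.202 on smooth disks. This ratio was chosen after its values were seen, so it is given without a test. It was higher in all 3 small-scale topography libraries.

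The other read named for mir-3470b, mir-3470b-p5_1ss14TC, had 42.4, 7.77 and 55.7 on small-scale topography disks and 9.08, 6.06 and 8.44 on smooth disks. Small-scale topography 2 stood with the smooth libraries. The log2 fold change was 1.67 with a standard error of 0.94, and it ranged from 1.16 without small-scale topography 3 to 2.50 without small-scale topography 2. An exact permutation test over all 6 libraries gave p = 0.3. Both reads named for mir-3470b thus had a higher mean on small-scale topography disks, but neither passed the test, and their arms are known from the names only.

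mir-466k-p5, the GT repeat (hairpin at chr3:85467377-85467498, plus strand), had 16.7, 10.9 and 13.7 on small-scale topography disks and 4.13, 6.06 and 0 on smooth disks. The groups did not overlap. Its highest value stood for only 13 reads. The log2 fold change was 2.14 with a standard error of 1.35. By limma the unadjusted p was 0.123 and the adjusted p 0.823, so the read did not pass the test. The exact permutation p was 0.1, which groups without overlap always give here, so it adds nothing to the lack of overlap. The authors listed this sequence as upregulated among their differentially expressed microRNAs. mir-466k-p3_1ss7GA, named for the other arm, was placed at bases 5 to 27 of the hairpin, over the bases 7 to 25 of mir-466k-p5, and it was listed only in smooth 2, at 2.33.

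mir-1895-p3_1ss5CA, from a hairpin that overlaps exons of Cxxc4 and, in antisense to it, Gm26691 (chr3:134240505-134240583, minus strand), had 82.3, 45.1 and 185 on small-scale topography disks and 132, 126 and 107 on smooth disks. The smooth libraries lay inside the spread of the others. Its log2 fold change was -0.45 with a standard error of 0.43, and it ranged from -0.98 without small-scale topography 3 to 0.024 without small-scale topography 2, where its direction turned.

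The 3 most abundant reads of mir-6240 over base 90 were each highest in smooth 1. The most abundant, mir-6240-p3_1ss15GT, had 223, 357 and 182.3 on small-scale topography disks and 394, 199 and 262 on smooth disks, with a log2 fold change of -0.17 and a standard error of 0.33. mir-6240-p3_1ss16GT, which is the same read with 1 more base at the 5′ end, had 109, 62.9 and 106 against 179, 89.0 and 89.2. mir-6240-p5_1ss20GT, with 5 more bases at the 5′ end, had 25.1, 32.6 and 33.1 against 45.4, 25.4 and 26.5. In all 3 the libraries of the disks overlapped. The other 2 reads over base 90, mir-6240-p3_1ss13GT and mir-6240-p3_1ss11GT, were each listed in 3 libraries, at 13.3 or less.

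The second block of mir-6240 reads lay over base 61, and its 4 most abundant reads overlapped between the disks. mir-6240-p3_1ss10TG had 135, 135 and 80.4 against 95.0, 131 and 101. mir-6240-p3_1ss7TG had 90.01, 74.6 and 42.6 against 61.9, 64.3 and 49.4. The lowest value of both reads was in small-scale topography 3, the library in which the sum of mir-6236 was highest.
For mir-6240-p3_1ss9TG the values were 21.2, 48.9 and 36.3 against 61.1, 36.1 and 30.7. For mir-6240-p5_1ss12TG they were 36.6, 45.8 and 16.8 against 28.5, 49.4 and 9.04. Fitted log2 fold changes of these 4 reads ranged from -0.27 to 0.36, each smaller than its standard error.

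The other reads of the block were low. mir-6240-p3_1ss13TG had 0, 12.4 and 18.4 on small-scale topography disks and 0, 4.19 and 0 on smooth disks, which overlapped, with a log2 fold change of 1.88 and a standard error of 1.67. mir-6240-p5_1ss15TG_1 and mir-6240-p5_1ss15TG_2 differ in length by 1 base and share all 6 values, 0, 9.32 and 5.78 on small-scale topography disks and 12.8, 10.3 and 9.64 on smooth disks. Here the smooth libraries were all higher. The log2 fold change was -1.52 with a standard error of 1.36, and small-scale topography 2 and smooth 3 differed by less than 1 read. The exact permutation p was 0.1, as it always is here for groups without overlap. Without the lowest library, small-scale topography 1, the log2 fold change was -0.50.

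mir-6236 (chr9:110281287-110281409, plus strand, no other gene there) gave 10 members, and its sum was highest in 1 library. The sum was 24.4, 28.7 and 184 on small-scale topography disks and 69.4, 61.8 and 25.3 on smooth disks. In small-scale topography 3, mir-6236-p3_1ss15GA alone had 92.0, while it was at 0 in the other 2 libraries of that disk and at 12.0, 9.79 and 4.82 on smooth disks. mir-6236-p5_1ss15CG_1 and mir-6236-p5_1ss15CG_2, which shared all values, had 9.64, 3.88 and 15.2 against 37.2, 15.1 and 3.62. The exact reads mir-6236-p5_1 and mir-6236-p5_2 also shared their values, 3.21, 3.88 and 12.6 against 5.37, 5.13 and 0. Each of these pairs gives 1 measurement and not 2.

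The remaining members were low. mir-5099-p5_1ss18TG had 46.3, 18.6 and 38.9 on small-scale topography disks and 28.9, 13.0 and 26.5 on smooth disks, which overlapped. The 6 members of mir-5112 summed to 44.4, 26.4 and 77.2 against 14.5, 30.3 and 52.4, also overlapping. mir-6978-p3_1ss2AC and mir-3110-p3_1ss7TG were listed only in small-scale topography 3, at 9.46 and 3.15. mir-6946-p5_1ss16AG was listed only in small-scale topography 1, at 3.86, and mir-5122-p3 only in smooth 2, at 2.80.

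The disk comparison was fitted for 536 sequences with a summed value of 20 or more, and 35 of the 49 members were among them. The other 14 were too low. No member and no other sequence passed an adjusted p of 0.05 by limma, so the share called over all sequences was 0% and no adjusted p was below 0.823. Before adjustment, 1 member had a p under 0.05 and was higher on small-scale topography disks, mir-3470a-p3, against 0.56% of all sequences, and 0 members were lower, against 1.68% of all.

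Log2 fold changes were above 0 for 20 of the 35 and below 0 for 15, with a median of 0.18, while over all 536 the counts were 271 and 265 with a median of 0.01. Without overlap between the groups and higher on small-scale topography disks were 2 of 35 members, mir-3470a-p3 and mir-466k-p5, against 1.87% of all sequences. Lower without overlap were 2 of 35, the pair of mir-6240 reads with shared values, against 5.04% of all.

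By hairpin, all 3 tested members of mir-3470a and mir-3470b had positive log2 fold changes, the 12 of mir-6240 had 4 positive and 8 negative with a median of -0.22, and the 9 of mir-6236 had 5 positive and 4 negative. The number of members at an unadjusted p under 0.05 depended on the library left out. It was 2 without small-scale topography 1, 2 without small-scale topography 2 and 4 without small-scale topography 3, and mir-3470a-p3 was among them each time. The share over all sequences in these same fits is not given here, so the counts cannot be read as a result about the members. Without small-scale topography 3, the other 3 were lower on small-scale topography disks: mir-6236-p3_1ss16GC, mir-6236-p3_1ss15GA and mir-1895-p3_1ss5CA. None of these passed adjustment over all sequences.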

How the data were processed

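Exosomes were isolated from culture supernatant by centrifugation, and small RNA libraries were made with a TruSeq kit and sequenced by the authors on an Illumina HiSeq. The authors trimmed the 3′ adapter, kept 18 to 26 bases, filtered out reads of messenger RNA, other RNA families and repeats, and named the rest with ACGT101-miR. For each sequence and library, the authors deposited a normalized signal. Its scaling formula, the version of the program and the genome build used for naming were not given in the sources used here. A test for counts had been planned for the case that the table held counts. As it held normalized values, of which 89.2% to 93.7% by library were whole multiples of 1 read, limma 3.58.1 (R 4.3.3) with a mean-variance trend was used on log2(value + 1), over distinct sequences with a summed value of at least 20, with Benjamini-Hochberg adjustment over all 536. The script was tested on simulated data. Sequences were matched to GENCODE M21 transcripts and to RefSeq hairpins (GRCm38.p6), and coordinates come from those tables. Hairpins of 4 names, mir-3470a, mir-3470b, mir-6236 and mir-5112, were not aligned.

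Values of every library were given for the 10 members with the highest means and those with an unadjusted p under 0.05. They were also given for those whose groups did not overlap and for the highest member of each origin class. Pairs from both arms of a hairpin were covered only in part. Some members of mir-6240, mir-6236, mir-5119 and mir-5112 were left without single values. Further members were named after their values were seen. The members, lists and tests were chosen with earlier results of these data known. Other scalings, pseudocounts, filters, a replicate block and leaving out each library were tried.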

Additional observations from a re-analysis of the deposited data

How the results depend on the processing

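The number of members called at an adjusted p of 0.05 was 0 under every alternative run (scaling, pseudocount, filter, rows as deposited, shared values counted once, no mean-variance trend, replicate block, and each library left out). Deviations of same-numbered libraries had correlations of -0.035, 0.10 and 0.025, and 2 of 3 numbers matched best with their own. So few correlations cannot show whether the numbers stand for a pairing. With the replicate block 0 members were called. Members in all 6 libraries fell from 19 to 11 when 10 reads were asked for. The limits are depth, with many values of under 10 reads, and 3 libraries a disk.

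Without a filter or without the trend, mir-3470a-p3 was no longer at an unadjusted p under 0.05 and mir-466k-p5 was. In leaving out each library, the log2 fold change kept its sign for mir-3470a-p3 (0.91 to 1.27), mir-3470b-p3_1ss15GA (0.15 to 0.44), mir-3470b-p5_1ss14TC (1.16 to 2.50), mir-466k-p5 (1.27 to 2.68) and both mir-6240-p5_1ss15TG reads (-2.18 to -0.50). It changed sign for mir-1895-p3_1ss5CA (-0.98 to 0.024), mir-6240-p3_1ss15GT (-0.44 to 0.10), mir-6240-p3_1ss16GT (-0.49 to 0.013), mir-6240-p3_1ss9TG (-0.54 to 0.045), mir-6240-p3_1ss10TG (-0.052 to 0.32), mir-6240-p3_1ss7TG (-0.045 to 0.49), mir-6240-p5_1ss12TG (-0.29 to 0.87) and mir-6240-p5_1ss20GT (-0.20 to 0.20). The cause was not tested.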
